A study of Mus musculus with 9 samples.

Results

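Among thymic invariant natural killer T (iNKT) cells, 39 genes were higher both in wild-type (WT) cells of the last maturation stage and in *Med23*-deficient cells of the stage before it than in WT cells of that earlier stage. They were selected on the expression values themselves: of the 12689 protein-coding genes off chromosomes X and Y in a table of 21883 genes, these 39 had a mean log2(FPKM + 1) at least 0.8 above that of WT stage 2 in WT stage 3 and in *Med23*-deficient stage 2 cells, and the highest WT stage 2 value lay below the lowest of the 6 other values. FPKM are fragments per kilobase of transcript, scaled to the mapped reads of each library, so levels are given per length. The differences of these genes from WT stage 2 therefore describe how they were chosen and carry no test. The choice did not set the sign of the difference between *Med23*-deficient and WT stage 3 cells, and that comparison was tested gene by gene over all genes. The choice did use the values of both groups and their spread, so counts of members in that comparison are descriptive.

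The study sequenced RNA of sorted thymic iNKT cells in 9 libraries: 3 of WT stage 2, 3 of WT stage 3 and 3 of *Med23*-deficient cells of stage 2. The *Med23*-deficient samples are numbered apart from the WT samples in the deposit, so genotype and a batch, if there was one, cannot be told apart. All mice were of the C57BL/6 strain; the WT mice were 6 weeks old, and the age of the *Med23*-deficient mice behind these libraries is not given in the labels. In the deficient mice a floxed *Med23* gene was deleted by Cre under the *Cd4* promoter, which acts from the double-positive thymocyte onward and so in all conventional T cells as well as in iNKT cells; whether the WT mice carried the Cre transgene or the floxed gene is not given in the sources used here. Cells were gated on the CD1d tetramer and then on low CD24 and high CD44, with NK1.1 low for stage 2 and high for stage 3, so that *Klrb1c* (the NK1.1 gene) and *Cd44* were set by the sort. The study's methods speak of independent experiments, but the labels do not say that replicates came from separate animals; p-values measure the spread between these samples only, part of which may be technical. Read depth is unknown; between 15584 and 17333 genes were above 0 FPKM in a library.

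iNKT cells carry a semi-invariant T cell receptor that sees lipids on CD1d. They are selected in the thymus by double-positive thymocytes, divide early, and then mature through a CD44-high, NK1.1-negative stage into resting, T-bet-driven cells with NK cell receptors and cytotoxic granules, while other iNKT cells leave the path as producers of other cytokines. Med23 is a subunit of Mediator, the complex that links transcription factors at enhancers to RNA polymerase II.

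The labels were checked against their genes before the members were looked at. *Med23* itself stood at 5.51, 5.15 and 6.74 FPKM in WT stage 2, at 7.14, 4.44 and 6.12 in WT stage 3, and at 4.80, 3.60 and 3.92 in the *Med23*-deficient libraries. The deficient libraries were below every WT stage 2 library but overlapped with WT stage 3 replicate 2, and a value over the whole gene counts reads from exons outside the deleted part too, so it is a weak check of the deletion. *Klrb1c* was 16.3, 26.2 and 7.65 FPKM in WT stage 2, 95.1, 57.3 and 72.7 in WT stage 3, and 4.60, 2.61 and 3.04 in *Med23*-deficient cells, and thus differed between the stage 2 groups within the same gate. WT stage 3 replicate 2 stood apart from the 8 other libraries: *Xist* was 47.5 FPKM in it and at most 0.01 elsewhere, and the Y-linked *Ddx3y* was 0 in it and between 9.76 and 16.6 elsewhere. These are values of female cells in that library and of male cells in the 8 others. Sex thus differed within WT stage 3, and its part in the members' levels was not tested. The number of members and the calls between the raised groups at an adjusted p of at most 0.05 are also given without it; other counts and values include it unless stated. T cell receptor genes were abundant in every library, with summed iNKT markers between 1520 and 1887 FPKM, while the summed B cell, myeloid and erythroid markers did not exceed 2.53 FPKM in any library. Dendritic cell markers, with the chemokine receptor gene *Ccr9* the most abundant on average, summed to 13.1, 14.1 and 18.2 FPKM in WT stage 2, 0.75, 1.90 and 2.55 in WT stage 3, and 19.8, 12.6 and 17.6 in *Med23*-deficient cells. Of that list, *Flt3*, *Xcr1* and *Zbtb46* did not exceed 0.12 FPKM in any library, while *Cd74* reached 5.56 and *H2-Ab1* 1.02. Stromal, epithelial and endothelial markers, mostly *Pecam1*, summed to 8.78, 9.52 and 8.85 FPKM in WT stage 2, 1.97, 3.87 and 3.23 in WT stage 3, and 10.8, 9.30 and 8.08 in *Med23*-deficient cells. No other gene of that list exceeded 0.79 FPKM in any library.

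The members ranged from barely detected to abundant. Their mean level in WT stage 2 ran from 0.263 to 47.5 FPKM with a median of 2.06, and 9 of the 39 were below 1 FPKM there. In WT stage 3 the median was 8.37 FPKM and in *Med23*-deficient cells 7.58 FPKM, and all 39 reached a mean of at least 1 FPKM over the 9 libraries, so a filter at that level removed none. The chosen differences from WT stage 2 had a median of 1.25 (0.82 to 3.12) on the log2(FPKM + 1) scale in WT stage 3 and of 1.10 (0.81 to 2.53) in *Med23*-deficient cells. That scale understates the change of genes with low values. Because the same WT stage 2 libraries served both differences, they are not independent of each other. In bulk RNA of sorted cells, a larger share of cells with a transcript and more of it per cell cannot be told apart.

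**Figure D1:**
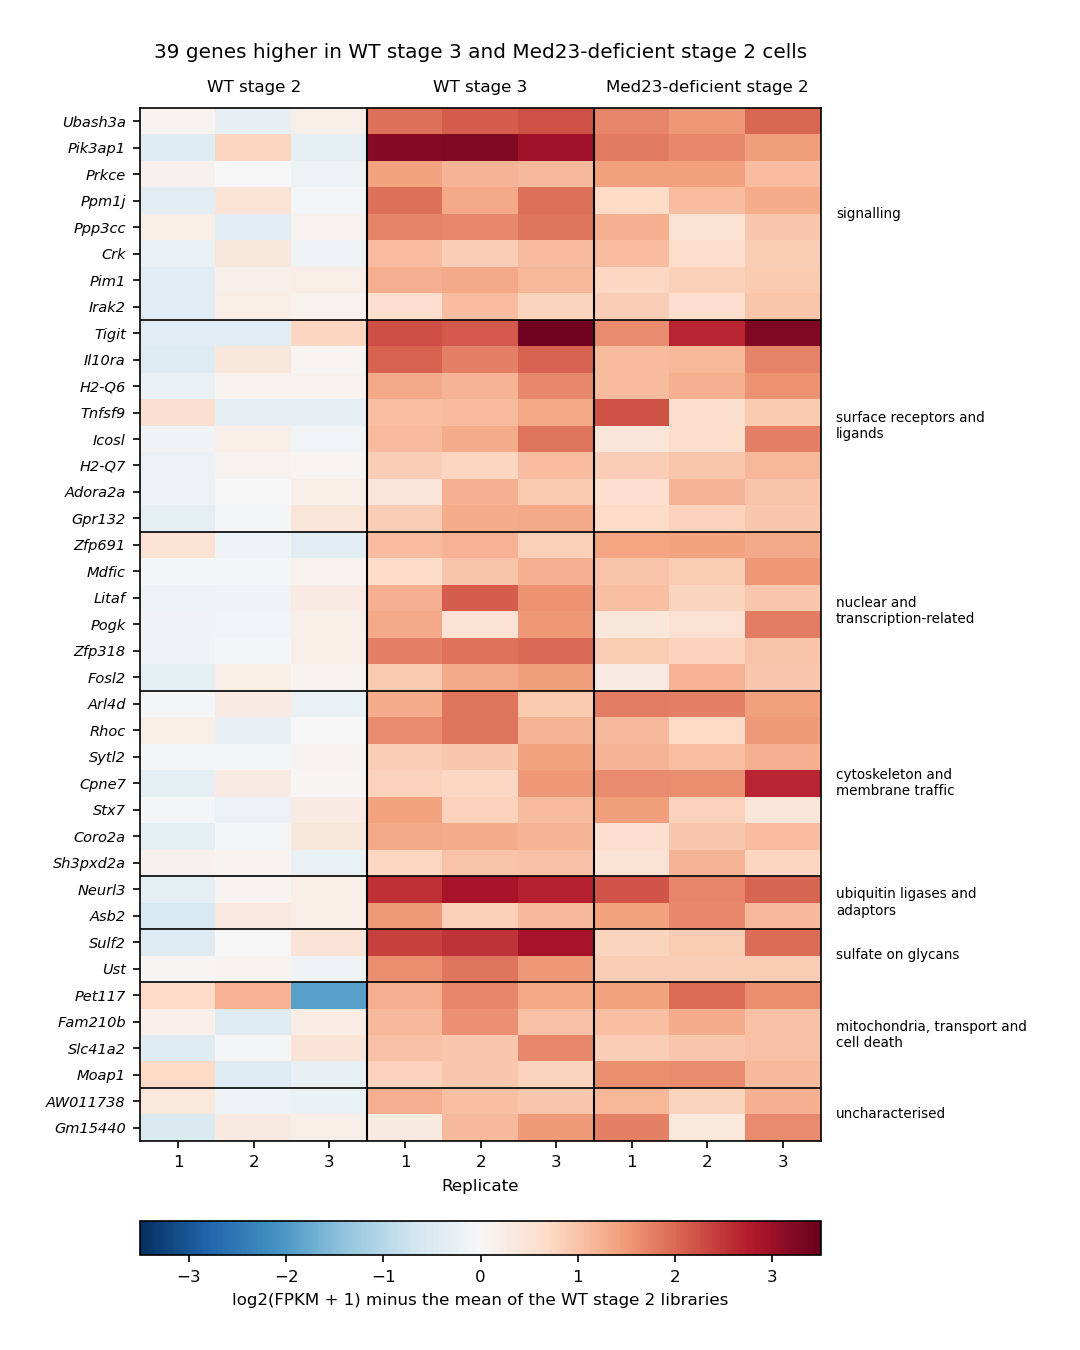
Each of the 39 members (rows, grouped by role) in each of the 9 libraries (columns), coloured by log2(FPKM + 1) minus the mean of the 3 WT stage 2 libraries. All 6 columns of WT stage 3 and *Med23*-deficient cells are above each WT stage 2 column in each row, as the choice requires; the median member stood between 1.27 and 1.35 above WT stage 2 in the WT stage 3 libraries and between 0.96 and 1.17 in the *Med23*-deficient ones.

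Taken alone, 322 of the 12689 eligible genes (2.54%) were at least 0.8 higher in WT stage 3 than in WT stage 2 without overlap, and 136 (1.07%) were so in *Med23*-deficient cells. The 39 members are the genes in both sets, as the choice requires. At the boundary, *Gpr132* (0.81), *Irak2* (0.81) and *Fosl2* (0.82) were the members with the smallest of their smaller log2 differences. Just outside it lay *Pip5k1b* (0.79), *Zfp971* (0.78) and *Lyn* (0.78). Each of these fell short in *Med23*-deficient cells alone, since they stood 1.02, 0.99 and 1.91 higher in WT stage 3.

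The receptors and ligands of the cell surface came to 8 members. *Tigit*, an inhibitory receptor of T and NK cells for CD155, had the largest smaller difference of all members and was listed at 0, 0 and 1.19 FPKM in WT stage 2, against 5.26, 4.78 and 12.4 in WT stage 3 and 3.12, 7.28 and 11.3 in *Med23*-deficient cells. The third replicate was the highest of its group in all 3 groups, and the WT stage 3 and *Med23*-deficient libraries overlapped over most of their range. *Il10ra*, the ligand-binding chain of the interleukin-10 receptor, was 0.70, 2.03 and 1.42 FPKM in WT stage 2, 8.63, 6.80 and 8.63 in WT stage 3, and 3.97, 4.19 and 6.79 in *Med23*-deficient cells. Every *Med23*-deficient library lay below every WT stage 3 library, the nearest pair by only 0.01 FPKM. *Adora2a*, an adenosine receptor that raises cAMP, was 5.23, 6.08 and 7.29 FPKM in WT stage 2, 8.67, 15.8 and 12.5 in WT stage 3, and 9.78, 15.4 and 13.3 in *Med23*-deficient cells. In both raised groups its first replicate was the lowest, and the 2 groups overlapped. *Gpr132*, a G protein-coupled receptor for protons and lysolipids, was 8.03, 10.03 and 14.4 FPKM in WT stage 2, 19.9, 27.5 and 28.2 in WT stage 3, and 17.3, 19.3 and 21.2 in *Med23*-deficient cells.

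Among the ligands, *Tnfsf9*, which encodes 4-1BB ligand, had the lowest mean of the members in WT stage 2. It was 0.79, 0 and 0 FPKM in WT stage 2, 1.51, 1.64 and 2.09 in WT stage 3, and 4.64, 0.85 and 1.30 in *Med23*-deficient cells. Its place among the members rested on *Med23*-deficient replicate 1, without which it fell short of the threshold. *Icosl*, the ligand of the costimulatory receptor ICOS, was a further member of this group, with mean levels of 1.07, 4.71 and 3.31 FPKM in WT stage 2, WT stage 3 and *Med23*-deficient cells.

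The class I genes *H2-Q6* and *H2-Q7*, which encode Qa-2 molecules, were the most abundant members. *H2-Q6* was 39.7, 51.6 and 51.3 FPKM in WT stage 2, 118.9, 108.3 and 154.5 in WT stage 3, and 103.6, 113.7 and 141.6 in *Med23*-deficient cells. *H2-Q7* was 27.1, 34.7 and 33.2 FPKM in WT stage 2, 58.3, 53.3 and 67.4 in WT stage 3, and 57.8, 62.3 and 72.3 in *Med23*-deficient cells. For both genes the WT stage 3 and *Med23*-deficient libraries overlapped. The genes are near-identical neighbours, 9099 bases apart on chromosome 17, and the authors used reads that hit up to 2 loci, so how their reads were split between them is uncertain.

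Signalling genes made up 8 members. *Pik3ap1* encodes an adaptor that couples immune receptors to phosphoinositide 3-kinase. It was 3.08, 8.08 and 3.35 FPKM in WT stage 2, 48.4, 50.7 and 40.8 in WT stage 3, and 18.2, 16.4 and 13.97 in *Med23*-deficient cells, or 46.6 ± 5.15 (SD, n = 3) in WT stage 3 against 16.2 ± 2.12 (SD, n = 3) in *Med23*-deficient cells. The *Med23*-deficient libraries thus lay below every WT stage 3 library. That they lay above every WT stage 2 library was required by the choice, here and for each other member. *Ubash3a*, a suppressor of T cell receptor signalling, was 3.22, 2.28 and 3.57 FPKM in WT stage 2, 14.1, 16.2 and 17.6 in WT stage 3, and 12.1, 10.5 and 15.03 in *Med23*-deficient cells. Its raised groups overlapped in 1 *Med23*-deficient and 1 WT stage 3 library. *Prkce*, protein kinase C epsilon, was 2.12, 1.85 and 1.51 FPKM in WT stage 2, 6.51, 5.48 and 5.14 in WT stage 3, and 6.56, 6.61 and 5 in *Med23*-deficient cells. Its 2 raised groups overlapped, with means of 5.71 and 6.06 FPKM. *Irak2*, a kinase of interleukin-1 and Toll-like receptor signalling, was low throughout, between 1.09 and 2.19 FPKM in WT stage 2 and between 3.06 and 4.66 FPKM in the 6 raised libraries.

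The other signalling members were the cytokine-induced kinase gene *Pim1*, the calcineurin catalytic subunit *Ppp3cc*, the adaptor *Crk* and the phosphatase *Ppm1j*. *Ppp3cc* had means of 6.71 ± 1.59, 24.9 ± 1.81 and 13.5 ± 3.53 FPKM (SD, n = 3 each) in WT stage 2, WT stage 3 and *Med23*-deficient cells. *Pim1* had means of 9.76 ± 2.39, 24.2 ± 1.48 and 17.8 ± 1.23 FPKM (SD, n = 3 each) in the same order. In each of *Pim1*, *Ppp3cc* and *Ppm1j* the *Med23*-deficient libraries lay below the WT stage 3 libraries without overlap.

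**Figure D2:**
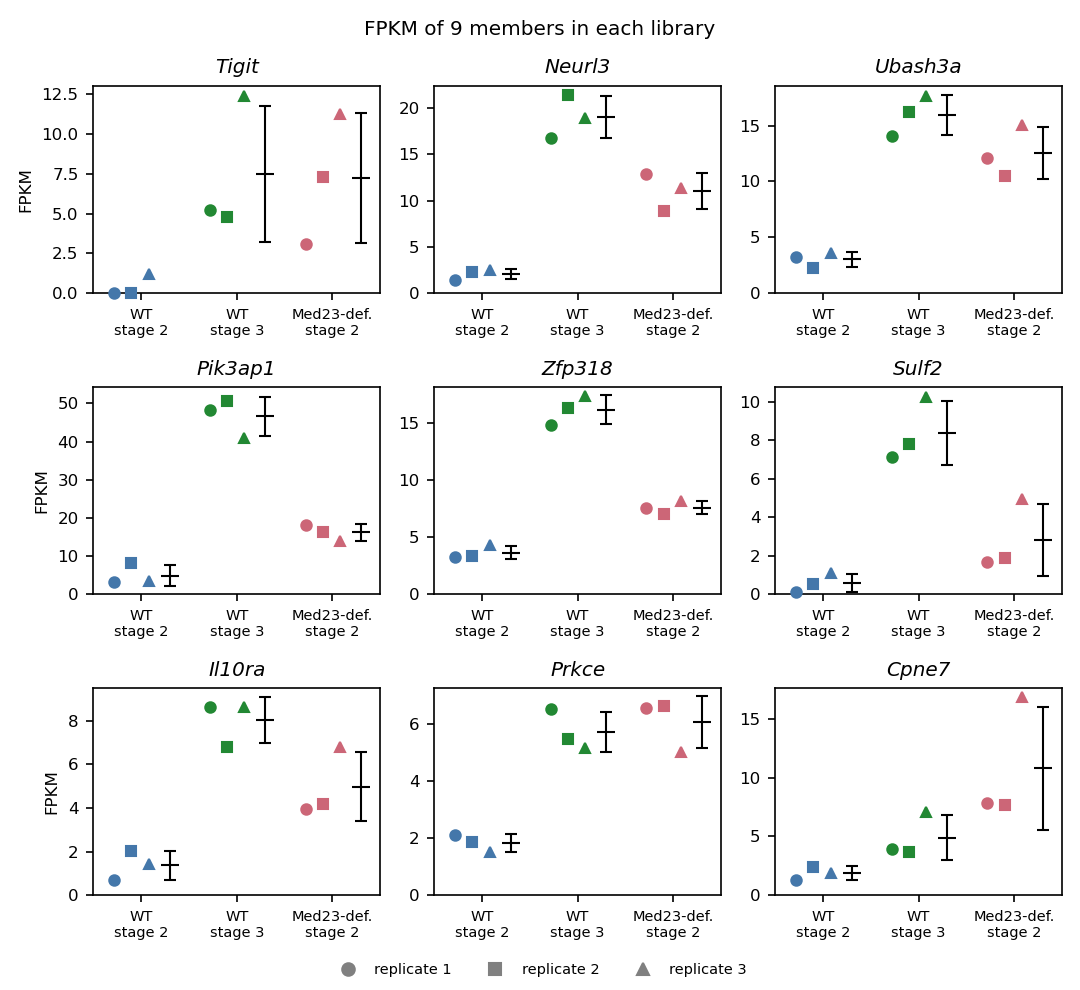
FPKM of 9 members in each library, with 1 symbol per replicate; the black mark beside each group is its mean ± SD over 3 libraries, left out where a library is at 0. *Pik3ap1*, *Zfp318* and *Sulf2* show *Med23*-deficient libraries between the WT stages, *Tigit* and *Prkce* show overlapping raised groups, and *Cpne7* shows *Med23*-deficient libraries (7.68 to 16.8) above those of WT stage 3 (3.69 to 7.08).

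Of the 6 nuclear and transcription-related members, *Zfp318* and *Fosl2* had the largest differences between the raised groups beside *Litaf*. *Zfp318*, a nuclear zinc finger protein that in B cells governs the expression of IgD, was 3.27, 3.37 and 4.29 FPKM in WT stage 2, 14.8, 16.3 and 17.3 in WT stage 3, and 7.51, 7.05 and 8.17 in *Med23*-deficient cells. The replicates of each group lay close together and the *Med23*-deficient libraries were all below those of WT stage 3. *Fosl2* encodes the AP-1 subunit Fra-2 and was 3.22, 5.31 and 4.67 FPKM in WT stage 2, 9.12, 12.4 and 13.8 in WT stage 3, and 5.54, 11.4 and 9.19 in *Med23*-deficient cells. Here *Med23*-deficient replicate 1 was close to WT stage 2 and replicates 2 and 3 were within the WT stage 3 range. *Zfp691*, a further zinc finger gene, was 1.15, 0.39 and 0.16 FPKM in WT stage 2, 2.20, 2.55 and 1.69 in WT stage 3, and 2.93, 3.01 and 2.78 in *Med23*-deficient cells. It was highest in the *Med23*-deficient libraries, all 3 of which were above the WT stage 3 libraries. *Pogk*, *Mdfic* and *Litaf*, an endosomal membrane protein first described as a transcription factor, completed this group.

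The cytoskeletal and membrane traffic members were *Coro2a*, *Rhoc*, *Arl4d*, *Sytl2*, *Stx7*, *Cpne7* and *Sh3pxd2a*. *Arl4d*, a small GTPase of the ARF family, was 9, 11.7 and 7.76 FPKM in WT stage 2, 24.3, 37.2 and 18.5 in WT stage 3, and 34.8, 34.0 and 27.2 in *Med23*-deficient cells. *Coro2a*, an actin-binding coronin, was 11.6, 13.8 and 19.6 FPKM in WT stage 2, 38.6, 37.6 and 34.9 in WT stage 3, and 22.3, 29.1 and 31.8 in *Med23*-deficient cells. *Arl4d* thus overlapped between the raised groups, whereas each *Med23*-deficient library of *Coro2a* was below each WT stage 3 library. *Cpne7*, a copine that binds phospholipids in the presence of calcium, was 1.26, 2.42 and 1.93 FPKM in WT stage 2, 3.94, 3.69 and 7.08 in WT stage 3, and 7.84, 7.68 and 16.8 in *Med23*-deficient cells. All *Med23*-deficient libraries were above all WT stage 3 libraries, and replicate 3 was the highest in both raised groups.

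*Neurl3* and *Asb2* act in ubiquitin transfer, as an E3 ligase and as the substrate-binding subunit of a cullin ligase. *Neurl3* was 1.45, 2.26 and 2.46 FPKM in WT stage 2, 16.8, 21.4 and 18.9 in WT stage 3, and 12.8, 8.91 and 11.4 in *Med23*-deficient cells. *Asb2* was 0.67, 2.03 and 1.76 FPKM in WT stage 2, 5.71, 3.32 and 4.29 in WT stage 3, and 5.43, 6.66 and 4.29 in *Med23*-deficient cells. *Neurl3* was lower in each *Med23*-deficient library than in each WT stage 3 library, and *Asb2* overlapped between the raised groups. The members that act on sulfate were *Sulf2* and *Ust*. *Sulf2*, an extracellular enzyme that removes sulfate from heparan sulfate, was 0.13, 0.52 and 1.10 FPKM in WT stage 2, 7.11, 7.77 and 10.2 in WT stage 3, and 1.65, 1.86 and 4.96 in *Med23*-deficient cells. *Ust*, a uronyl sulfotransferase, had means of 1.68 ± 0.212, 7.58 ± 1.07 and 3.92 ± 0.0625 FPKM (SD, n = 3 each) in the same order of groups. Both had *Med23*-deficient libraries below WT stage 3 without overlap.

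Members tied to mitochondria, ion transport or cell death were *Pet117*, *Fam210b*, *Slc41a2* and *Moap1*. *Pet117*, an assembly factor of cytochrome c oxidase, was 5.01, 7.81 and 0.01 FPKM in WT stage 2, 8.09, 11.2 and 8.56 in WT stage 3, and 9.08, 13.7 and 10.7 in *Med23*-deficient cells. The low value of WT stage 2 replicate 3 put it among the members, since without that library it fell short of the threshold. *Moap1*, which encodes a BAX-binding modulator of apoptosis, was 1.19, 0 and 0.14 FPKM in WT stage 2, 1.39, 1.62 and 1.35 in WT stage 3, and 3.18, 3.25 and 1.97 in *Med23*-deficient cells. *Pet117* lies wholly within *Csrp2bp* on the same strand, and *Moap1* within the gene models *Gm20604* and *Gm28051*, so their reads cannot be assigned with certainty. *AW011738* and *Gm15440* had no role assigned.

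**Figure D3:**
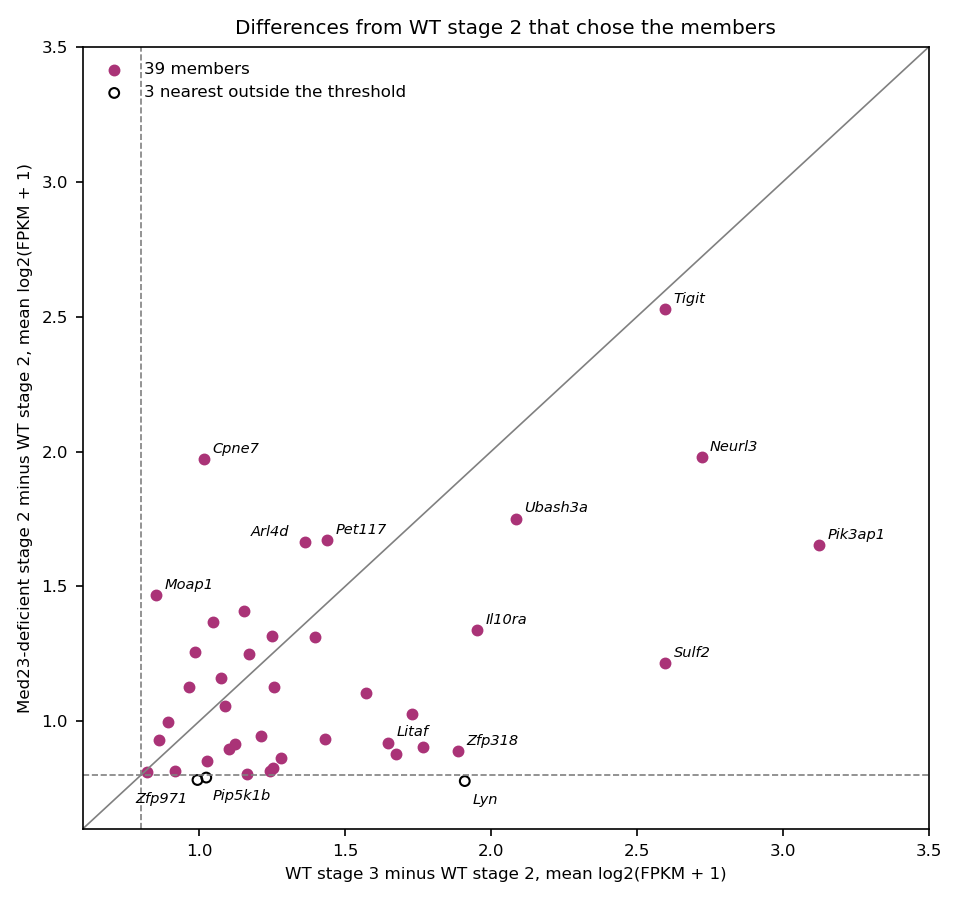
Mean log2(FPKM + 1) difference from WT stage 2 in WT stage 3 (x axis) and in *Med23*-deficient stage 2 cells (y axis) for the 39 members (filled) and the 3 nearest genes outside the threshold (open); dashed lines mark 0.8 and the solid line equal differences. Both axes use the same WT stage 2 libraries; 26 members lie below the line of equality, with *Pik3ap1* at 3.12 and 1.65, and 13 above it, with *Cpne7* at 1.02 and 1.97.

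The members were then compared between the raised groups, *Med23*-deficient stage 2 against WT stage 3, with limma on log2(FPKM + 1) over 20846 genes. Of the 39 members, 2 had an adjusted p (Benjamini-Hochberg) no higher than 0.05, against 278 of all genes tested (1.33%). Both members were lower in *Med23*-deficient cells, as were 131 of all genes (0.628%), while 0 members and 147 of all genes (0.705%) were higher; at an unadjusted p of at most 0.05, 11 members were lower and 2 higher, beside 1020 lower and 1108 higher of all 20846 genes. The balance over all genes moved with single libraries, with 58 lower and 27 higher without WT stage 3 replicate 1, 23 and 9 without replicate 2, and 54 and 24 without replicate 3. Without *Med23*-deficient replicates 1, 2 and 3 it was 34 and 52, 31 and 56, and 69 and 86. *Pik3ap1* fell by 1.47 on the log2 scale (SE 0.13, limma adjusted p = 0.0101) and was lower in 3 of 3 *Med23*-deficient libraries than in any WT stage 3 library. *Zfp318* fell by 0.998 (SE 0.11, limma adjusted p = 0.0188), again without overlap between the 3 libraries of each group. Neither call was held up in each refit with 1 library left out. For *Pik3ap1* the limma adjusted p was 0.0724, 0.0705 and 0.068 without WT stage 3 replicate 1, without WT stage 3 replicate 2 and without *Med23*-deficient replicate 2, at log2 differences between -1.56 and -1.38 over all 6 refits. For *Zfp318* the limma adjusted p passed the threshold without *Med23*-deficient replicate 3 alone and lay between 0.0636 and 0.0985 in the 5 other refits, with log2 differences between -1.05 and -0.95. Over all alternatives run, the limma and Ballgown-style adjusted p ranged from 0.00303 to 0.16 for *Pik3ap1* and from 0.00732 to 0.123 for *Zfp318*, the highest of each from the Ballgown-style model.

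By the thresholds of the study, a 2-fold difference with an unadjusted p up to 0.05, limma called 2 members, *Pik3ap1* and *Sulf2*, against 597 of 20846 genes (2.86%). Both were lower in *Med23*-deficient cells, as were 308 of all genes (1.48%), and 289 of all genes (1.39%) were higher. *Sulf2* stood 1.38 lower (log2 difference -1.38, SE 0.35), but its limma adjusted p was 0.199. Toward the other end, the log2 difference was 0.96 (SE 0.36) for *Cpne7*, 0.61 (SE 0.24) for *Moap1* and 0.32 (SE 0.21) for *Zfp691*, at limma adjusted p values of 0.438, 0.465 and 0.725. Their unadjusted p values were 0.0385, 0.0444 and 0.176, and none of the 3 reached a 2-fold difference on the log2(FPKM + 1) scale. *Cpne7* did so at pseudocounts of 0.1 and 0.01 and passed the fold and p thresholds there, as it did without WT stage 3 replicate 3 and without *Med23*-deficient replicate 2. Its difference ranged from 0.62 without *Med23*-deficient replicate 3 to 1.21 without WT stage 3 replicate 3. *Zfp318* passed the same thresholds at both pseudocounts, on the TPM scale, without WT stage 3 replicate 1 and without *Med23*-deficient replicate 3. The difference of *Zfp691* was 0.21 without WT stage 3 replicate 3.

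For most members the raised groups were not separated by their libraries. In 25 of 39 members the *Med23*-deficient and WT stage 3 libraries overlapped. Overlap was more common still among the eligible genes, as the shares without overlap that follow show. In 11 members (28.2%) all *Med23*-deficient libraries were below all WT stage 3 libraries, against 1055 of 12689 eligible genes (8.31%). In 3 members (7.69%) they were above, against 1238 eligible genes (9.76%). The 11 were *Pik3ap1*, *Sulf2*, *Zfp318*, *Ppp3cc*, *Ust*, *Neurl3*, *Litaf*, *Ppm1j*, *Il10ra*, *Pim1* and *Coro2a*, and the 3 were *Cpne7*, *Moap1* and *Zfp691*. The demand for no overlap with WT stage 2 also favours genes whose replicates lie close together, so these shares describe the members and test nothing. Of the 39 members, 26 (66.7%) had a negative log2 difference, as had 49.6% of all genes tested, and the median was -0.18 over the members and 0.00 over all genes. An absolute difference under 0.3 was found in 19 members (48.7%), against 70.0% of all genes tested and 63.6% of those with a mean of at least 1 FPKM. Among the 19 were *Tigit* at -0.07 (SE 0.50), *Prkce* at 0.07 (SE 0.17) and *H2-Q6* at -0.08 (SE 0.18).

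**Figure D4:**
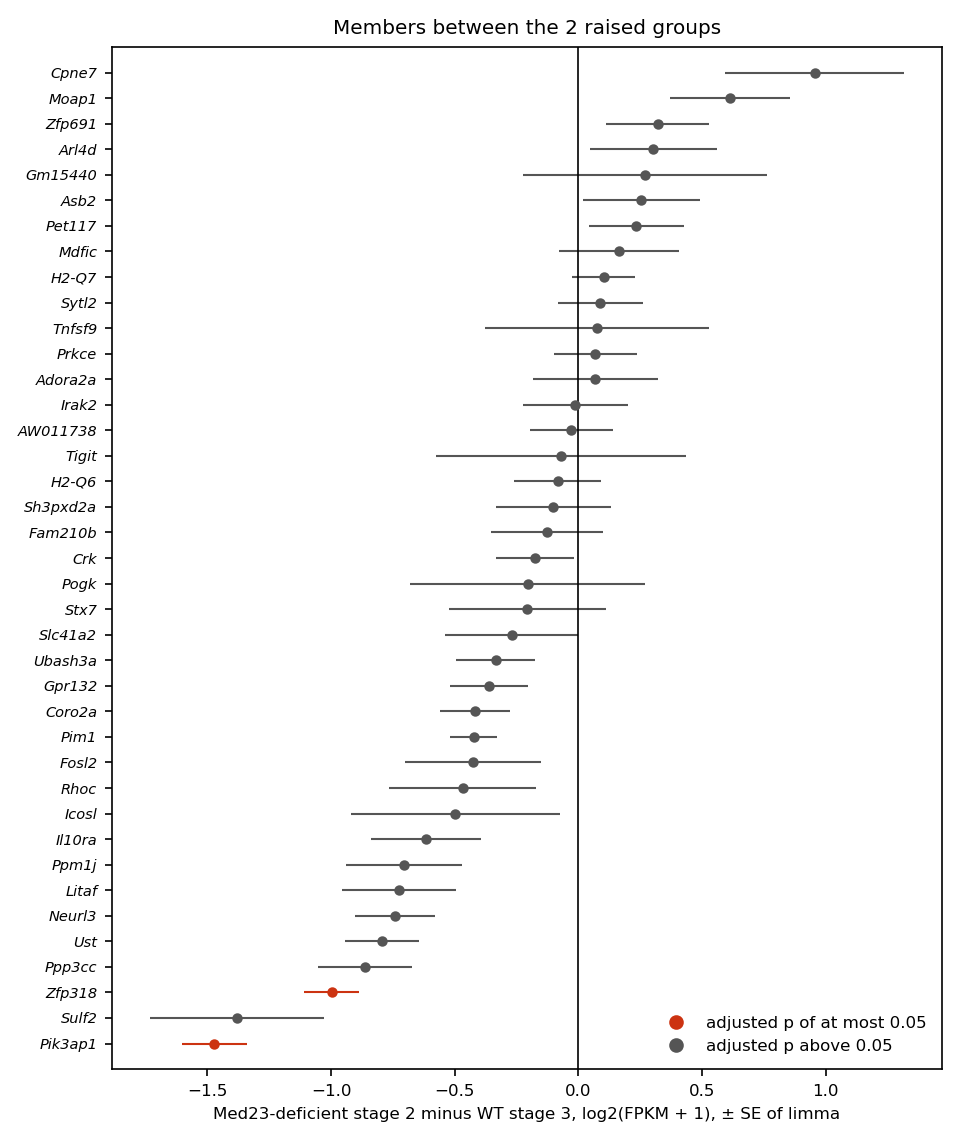
Log2(FPKM + 1) difference between *Med23*-deficient stage 2 and WT stage 3 cells for each member (point) with the limma standard error (bar), over 3 libraries per group. The values run from -1.47 for *Pik3ap1* to 0.96 for *Cpne7*; the 2 members with an adjusted p of at most 0.05 are in red.

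Without WT stage 3 replicate 2, the library that stood apart in *Xist* and *Ddx3y*, the same thresholds chose 44 genes, 37 of them among the 39. In the comparison of the raised groups, limma without that library called 32 genes and 0 members at an adjusted p of at most 0.05, with 11 members at an unadjusted p of at most 0.05 against 13 with it (1891 and 2128 of all genes). *Pik3ap1* and *Sulf2* still passed the fold and p thresholds, and the median log2 difference over the members was -0.29. Without WT stage 3 replicate 3 that median was -0.10, and under the 3 other scalings of the libraries it lay between -0.20 and -0.16. The 13 members at an unadjusted p of at most 0.05 became 9 and 8 without WT stage 3 replicates 1 and 3 (2088 and 2056 of all genes). They became 9, 9 and 13 without *Med23*-deficient replicates 1, 2 and 3 (1949, 2020 and 2350 of all genes). Each library was also left out of the choice in turn and then looked at. Of the genes chosen from the 8 remaining libraries, the ninth lay on the side of its group for between 65.2% and 70.3% where it was a WT stage 2 library, for between 71.2% and 91.9% where it was *Med23*-deficient, and for between 90.9% and 100% where it was WT stage 3. Over all eligible genes the shares were between 8.53% and 25.3%. The chosen genes were already apart in the 8 other libraries and the eligible genes were not, so the contrast of these shares tests nothing. Of the 39 members, 20 were chosen in each of these 9 refits, *Tigit*, *Neurl3*, *Ubash3a*, *Pik3ap1*, *Arl4d*, *Il10ra*, *H2-Q6*, *Prkce*, *Sulf2*, *Asb2*, *Zfp691* and *Zfp318* among them. Of the other named members, *Cpne7* was lost without WT stage 3 replicate 3, *H2-Q7* without WT stage 2 replicate 1, *Coro2a* without that library or without *Med23*-deficient replicate 3, and *Moap1* without WT stage 2 replicate 2 or 3. *Gpr132*, *Irak2*, *Fosl2* and *Adora2a*, close to the threshold, were each lost in at least 3 refits. *Pim1* was lost without WT stage 2 replicate 1 or *Med23*-deficient replicate 3, and *Ppp3cc* without WT stage 2 replicate 2 or *Med23*-deficient replicate 1. *Icosl* was lost without *Med23*-deficient replicate 3. *Pet117*, *Tnfsf9*, *Crk*, *Stx7*, *Sh3pxd2a*, *Slc41a2*, *Pogk* and *Gm15440* were also each lost in at least 1 refit.

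The gene lists drawn up for this tissue held 8 of the members. *Tigit* was the 1 gene of 32 NK cell receptor and adaptor genes that passed the thresholds in both groups, where 25 were higher in WT stage 3 and 1 in *Med23*-deficient cells. Between the raised groups, limma called 21 of the 32 lower in *Med23*-deficient cells at an adjusted p of at most 0.05 and 0 higher (0 also at an unadjusted p of at most 0.05), with a median log2 difference of -2.79. With 1 library left out, 15, 12 and 12 were called lower without WT stage 3 replicates 1, 2 and 3, and 13, 14 and 13 without *Med23*-deficient replicates 1, 2 and 3. *Tigit*, at -0.07, was not among them. *Fosl2* was the member among 27 AP-1 and related factors, of which *Mafk* and *Nfil3* passed the thresholds in WT stage 3 alone; limma called 0 of the 27 between the raised groups, with 5 lower and 1 higher at an unadjusted p of at most 0.05. The lower ones were 6, 2 and 2 without WT stage 3 replicates 1, 2 and 3, and 5, 7 and 4 without *Med23*-deficient replicates 1, 2 and 3. *Ubash3a* was the member among 56 negative regulators of T cell activation, of which limma called 2 lower in *Med23*-deficient cells and 5 higher (7 and 16 at an unadjusted p of at most 0.05). These calls did not hold: 0 were lower in each refit with 1 library left out, and 1 was higher in each but that without *Med23*-deficient replicate 3, where 3 were. The 7 lower at an unadjusted p became 9, 4 and 4 without WT stage 3 replicates 1, 2 and 3. Without *Med23*-deficient replicates 1, 2 and 3 they became 3, 5 and 10.

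*Pik3ap1* was the member among 51 kinases and adaptors of T cell receptor signalling. It was the 1 gene of that list called lower in *Med23*-deficient than in WT stage 3 cells, where 3 were called higher (9 and 10 at an unadjusted p of at most 0.05), and the higher calls came to 1 without WT stage 3 replicate 2, 1 without *Med23*-deficient replicate 3 and 0 in the 4 other refits. The 9 lower at an unadjusted p became 6, 8 and 6 without WT stage 3 replicates 1, 2 and 3. Without *Med23*-deficient replicates 1, 2 and 3 they became 3, 4 and 9. *Gpr132* and *Adora2a* were members among 34 chemokine, lipid and egress receptors, where 0 were called lower and 5 higher, with 5 lower and 9 higher at an unadjusted p of at most 0.05. The 5 called higher became 1, 0 and 0 without WT stage 3 replicates 1, 2 and 3, and 0, 1 and 2 without *Med23*-deficient replicates 1, 2 and 3. In these refits, between 3 and 5 were lower at an unadjusted p of at most 0.05. *Il10ra* stood among 45 cytokine receptor and TGF-beta pathway genes, with 1 called lower and 4 called higher (5 and 10 at an unadjusted p of at most 0.05). The higher calls were 2, 1 and 2 without WT stage 3 replicates 1, 2 and 3, and 4, 3 and 3 without *Med23*-deficient replicates 1, 2 and 3; the lower calls were 2 without *Med23*-deficient replicate 3 and 0 in the 5 other refits. At an unadjusted p of at most 0.05, between 3 and 6 were lower in these refits. Over all genes, limma called 131 of 20846 lower (0.628%) and 147 higher (0.705%). *Tnfsf9* was the 1 gene of a list of 21 TNF superfamily genes to pass the thresholds upward in either group, while 3 passed them downward in WT stage 3 and 2 in *Med23*-deficient cells. Other ligand genes of the family stood on a list of cytotoxic and chemokine genes instead. Of these, *Fasl* and *Tnfsf10* passed upward in WT stage 3 alone and *Tnfsf14* in *Med23*-deficient cells alone. Between the raised groups limma called 0 of the TNF superfamily list, with 0 lower and 6 higher at an unadjusted p of at most 0.05. On the cytotoxic and chemokine list, *Tnfsf11* and *Tnfsf14* were called higher in *Med23*-deficient cells at an adjusted p of at most 0.05. With 1 library left out, *Tnfsf11* was called without WT stage 3 replicate 1 alone and *Tnfsf14* in no refit. The list medians of the log2 difference were -0.18 for AP-1 factors, -0.05 for negative regulators, 0.08 for kinases and adaptors, 0.06 for the chemokine and lipid receptors, 0.07 for cytokine receptors and 0.11 for the TNF superfamily, beside 0.00 over all genes.

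Cell division genes moved with the groups in the opposite sense to the members, though they were not the only genes to do so. Summed FPKM of 38 cell division genes, with *Pcna* the most abundant on average, was 261.7, 264.3 and 307.3 in WT stage 2, 125.7, 164.3 and 114.2 in WT stage 3, and 127.1, 121.4 and 115.5 in *Med23*-deficient cells. By the same threshold in the downward direction, 23 of the 38 were lower in WT stage 3 and 22 in *Med23*-deficient cells, against 475 (3.74%) and 324 (2.55%) of the 12689 eligible genes. The list holds no member, and the part of cell division in the members' levels was not tested.

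The summed NKT2 markers, with *Zbtb16* the most abundant on average over the 9 libraries, were 228.6, 192.5 and 243.5 FPKM in WT stage 2, 63.9, 74.7 and 67.7 in WT stage 3, and 295.8, 254.8 and 241.0 in *Med23*-deficient cells. *Zbtb16* alone was 112.43, 87.96 and 102.71 FPKM in WT stage 2 and 90.85, 75.25 and 68.08 in *Med23*-deficient cells. *Ccr7* was also lower on average there than in WT stage 2, and *Il17rb*, *Gata3*, *Il4* and *Il13* were higher. The 2 groups overlapped for *Zbtb16*, *Ccr7* and *Il13*. The gamma delta list, with *Tcrg-C2* the most abundant on average over the 9 libraries (0.23 to 1.48 FPKM in the *Med23*-deficient ones), was between 259.6 and 331.0 FPKM in the WT libraries and between 8.72 and 9.11 in the *Med23*-deficient ones, while *Trdc* did not exceed 0.38 FPKM anywhere. The summed NK cell receptors were 148.5, 171.8 and 151.2 FPKM in WT stage 2, 1050, 852.1 and 874.5 in WT stage 3, and 81.5, 90.2 and 103.7 in *Med23*-deficient cells. Not all marker lists are given here. The sum of a further iNKT subset list, left out, also set WT stage 2 apart from both raised groups. The part of cell subsets in the members' levels was not tested.

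**Figure D5:**
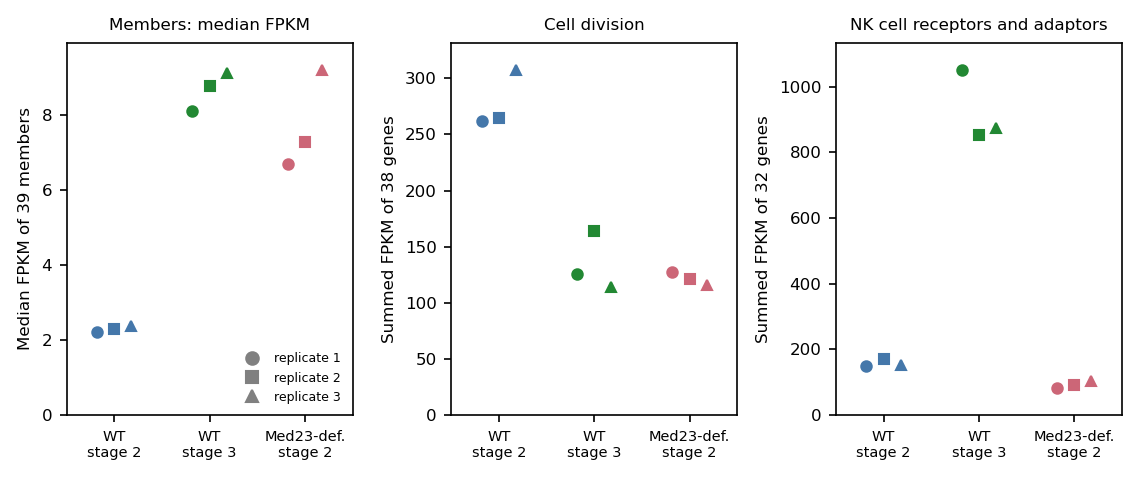
By library, the median FPKM of the 39 members and the summed FPKM of 38 cell division genes and of 32 NK cell receptor and adaptor genes, with 1 symbol per replicate. The members' median is between 2.20 and 2.38 in WT stage 2 and between 6.68 and 9.19 in the 6 other libraries; the cell division sum is highest in WT stage 2, and the NK cell receptor sum is highest in WT stage 3.

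The members lay on 17 chromosomes. Chromosome 17 held 7 of them (17.9%), *H2-Q6*, *H2-Q7*, *Pim1*, *Zfp318*, *Ubash3a*, *Prkce* and *Tnfsf9*, where 5.35% of eligible genes lie on it. Apart from *H2-Q6* and *H2-Q7*, 1 pair of members lay within 100000 bases of each other, *Ppm1j* and *Rhoc* on chromosome 3 with a gap of 2356 bases. *Fam19a3*, on the other strand over the start of *Ppm1j*, was 0.57, 0.60 and 1.01 FPKM in WT stage 2, 2.90, 2.76 and 3.23 in WT stage 3, and 0.68, 1.22 and 2.11 in *Med23*-deficient cells, and the sources used here do not state whether counting used the strand. In all, 14 members overlapped another gene model of the table.

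The choice made the members high and low in the same libraries, so that pattern alone is no sign of shared control. The members' promoters were read for shared letters as a description. RefSeq (GRCm38.p6, the assembly of mm10) gave 36 windows for 30 of the 39 members, each taken as the 250 bases before the start. TGTGGTT, which Runx factors bind, or its reverse complement was in 3 of the 36 windows (8.33%), those of *Tigit*, *Gpr132* and *Asb2*, and in 4.40% of all 32851 windows. The windows of *Tigit*, at chr16:43664185-43664434 on the minus strand, and of *Gpr132*, at chr12:112860917-112861166 on the minus strand, are shown with that match in capitals, as the members at the top and the bottom of the smaller difference.
Tigit: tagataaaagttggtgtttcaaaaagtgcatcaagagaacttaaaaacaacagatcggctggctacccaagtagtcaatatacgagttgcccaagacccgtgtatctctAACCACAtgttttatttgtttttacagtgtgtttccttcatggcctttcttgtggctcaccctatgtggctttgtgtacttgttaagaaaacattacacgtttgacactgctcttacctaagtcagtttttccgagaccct
Gpr132: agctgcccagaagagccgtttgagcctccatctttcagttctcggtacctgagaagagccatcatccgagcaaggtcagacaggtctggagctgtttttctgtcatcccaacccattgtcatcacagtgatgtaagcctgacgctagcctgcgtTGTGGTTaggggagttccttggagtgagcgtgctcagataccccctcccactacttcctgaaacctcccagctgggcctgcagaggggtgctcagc

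CCGGAAG, an ETS family motif, was in 2 of 36 windows (5.56%; *Neurl3* and *Pogk*) and in 6.91% of all. TGACGTC, the cAMP response element, was in 3 (8.33%; *Arl4d*, *Moap1* and *Pogk*) and in 2.78% of all. CAGGTG, an E-box of E proteins and Zeb factors, was in 4 (11.1%; *Pik3ap1* among them) and in 17.2% of all. The windows of *Neurl3* (chr1:36273426-36273675, minus strand, ETS motif in capitals), *Arl4d* (chr11:101665291-101665540, plus strand, cAMP response element in capitals, where the match on each strand overlaps the other) and *Pik3ap1* (chr19:41385103-41385352, minus strand, E-box in capitals) are shown as those of members with large differences in both groups.
Neurl3: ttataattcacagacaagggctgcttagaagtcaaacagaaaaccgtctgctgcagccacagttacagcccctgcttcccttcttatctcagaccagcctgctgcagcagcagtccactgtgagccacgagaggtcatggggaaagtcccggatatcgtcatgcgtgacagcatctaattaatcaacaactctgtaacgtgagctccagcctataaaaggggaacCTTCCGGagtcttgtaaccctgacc
Arl4d: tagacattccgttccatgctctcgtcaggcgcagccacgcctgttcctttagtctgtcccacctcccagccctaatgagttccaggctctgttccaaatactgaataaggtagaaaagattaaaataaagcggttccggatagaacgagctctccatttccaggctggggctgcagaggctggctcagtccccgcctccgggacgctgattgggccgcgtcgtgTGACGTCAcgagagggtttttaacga
Pik3ap1: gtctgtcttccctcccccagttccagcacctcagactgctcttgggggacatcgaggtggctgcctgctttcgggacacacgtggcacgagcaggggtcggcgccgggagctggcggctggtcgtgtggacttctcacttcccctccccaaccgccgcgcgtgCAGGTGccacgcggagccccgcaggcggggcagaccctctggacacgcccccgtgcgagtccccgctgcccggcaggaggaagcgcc

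The GC-rich motifs GGGCGGG of Sp and Kruppel-like factors and GTGGGCG of Egr factors were in 15 (41.7%) and 6 (16.7%) of the 36 windows, against 23.4% and 7.02% of all, and the median GC content was 60.0% in the members' windows and 52.4% in all. TATAAA was in 2 (5.56%; 12.4% of all). TGANTCA of AP-1, GGTGTGA of T-box factors and TGGAAAA of NFAT were in 0 of the 36 windows and in 6.75%, 3.33% and 5.93% of all. Each motif was read on both strands; a match says only that the letters are there, and the absence of one says only that they are not in these windows.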

How the data were processed

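RNA of sorted thymic iNKT cells was measured in 9 libraries. Per the submitters' processing notes and the study's methods, a stranded kit for small amounts of total RNA was used, and reads were trimmed with Trimmomatic 0.36, aligned to mm10 with HISAT2, and quantified on GENCODE genes with StringTie. All values start from FPKM in a table deposited by the authors, given to 2 decimals for every replicate; it holds no read counts, so no interval for counting error is given. From these log2(FPKM + 1) was computed. A two-sided linear model with variances moderated along a trend on mean level (limma 3.58.1, R 4.3.3) was fitted to the 6 libraries of *Med23*-deficient stage 2 and WT stage 3, over the 20846 genes above 0 FPKM in at least 1 of them, with Benjamini-Hochberg adjustment over all. Ballgown, the tool of the study, was replaced by least squares with a term for library size, as an alternative. Scripts were tested on simulated data. Python 3.11.15, pandas 2.3.3, numpy 2.4.6 and matplotlib 3.10.9 were used otherwise.

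The members and the gene lists were chosen with earlier results of these data known, and roles were assigned once the members were known. Members named with values in each library are, leaving aside provisional gene models (Gm and Rik symbols), the 12 with the largest smaller difference, the 6 most abundant over the raised libraries, those on a gene list, those called between the raised groups with the 3 highest and 3 lowest differences there, and the 3 just inside the threshold; *Med23*, *Klrb1c* and *Cd44* served as checks. Other members are named with their role, and *Ppp3cc*, *Pim1*, *Ust* and *Icosl* were given values after these were seen. The alternatives were other thresholds, pseudocounts of 0.1 and 0.01, a mean FPKM of at least 1, quantile normalization, a common upper quartile, a TPM scale, overlap allowed, no trend, all 9 libraries, the replicate number as a block, and each library left out.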

Additional observations from a re-analysis of the deposited data

Results flagged for a closer look

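The choice of members left out 9194 rows of the table that are not protein-coding or lie on chromosome X or Y. Of these, 38 (0.413%) passed the same thresholds, as did 0.307% of the eligible genes; the choice excluded them, so they are in no count of members. Among them were 12 small RNA models, 5 T cell receptor segments and 2 protein-coding genes on X. The genes named next were chosen after their values were seen. *L1cam*, an adhesion molecule gene on X, was 1.15, 0.76 and 1.55 FPKM in WT stage 2, 5.71, 4.13 and 4.47 in WT stage 3, and 8.61, 6.47 and 8.73 in *Med23*-deficient cells. *H2-Q5*, annotated as a polymorphic pseudogene beside *H2-Q6*, was 16.3, 10.9 and 12.9 FPKM in WT stage 2, 32.2, 27.2 and 41.9 in WT stage 3, and 24.2, 26.4 and 40.1 in *Med23*-deficient cells. *Pvrig-ps*, a pseudogene related to an inhibitory receptor of the *Tigit* family, was 0, 0.09 and 5.52 FPKM in WT stage 2, 11.1, 25.3 and 28.5 in WT stage 3, and 7.94, 5.73 and 11.7 in *Med23*-deficient cells. Whether reads of pseudogenes come from related genes was not tested.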

How the results depend on the processing

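The 39 members became 19 at a threshold of 1, 94 at 0.6, 98 at a pseudocount of 0.1, 24 on the TPM scale (all 24 among the 39) and 64 with overlap allowed, and between 37 and 69 with 1 library left out (64 and 69 without WT stage 2 replicates 2 and 3, 59 without *Med23*-deficient replicate 1); the cause was not tested. A TPM scale without the most abundant row, *Gm23935*, was added after seeing the data and kept 32 of the 39. Between the raised groups, the 278 genes at an adjusted p of at most 0.05 became 17 in the Ballgown-style model and 32 to 155 with 1 library left out (85, 32 and 78 without WT stage 3 replicates 1, 2 and 3; 86, 87 and 155 without *Med23*-deficient replicates 1, 2 and 3), and the 2 members became 0 (9 at an unadjusted p of at most 0.05) and 0 to 2. They were 3, with *Ust*, at a mean FPKM of at least 1 and without the trend, and the genes were 349 at that mean and 395 with all 9 libraries. The 597 genes by fold and p became 1221 and 1211 at pseudocounts of 0.1 and 0.01, with 4 members each, and 566 to 696 with a library left out, with 2 to 3 members; the cause was not tested. With a block for replicate number, 42 genes and 1 member (*Pik3ap1*) passed the adjusted p; correlations of same-numbered libraries were 0.0498, 0.0392 and 0.271, so the numbers were not taken to pair samples, and not every library correlated best with its own number. The 3 lowest and 3 highest differences among the members kept their sign in the 16 alternatives. Unknown depth limits what can be said of members below 1 FPKM.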
